A study of Mus musculus with 4 samples.

Results

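The genes described here are 10 components of the mammalian circadian clock, chosen by name: Per1, Per2, Per3, Cry1, Cry2, Nr1d1, Nr1d2, Dbp, Tef and Bhlhe40. Their levels were read in 2 neighbouring populations of mouse blood formation. Hematopoietic stem cells (HSC) were CD34(-)KSL cells and multipotent progenitors (MPP) were CD34(+)KSL cells, both sorted from C57BL/6 mice, with 2 biological replicates a group and no treatment named for either. KSL denotes the c-Kit-positive, Sca-1-positive, lineage-negative gate that both groups shared, so that CD34 was the antigen separating them. Biotinylated cRNA from RNA equivalent to 3000 cells was hybridised to 1 Affymetrix Mouse Genome 430 2.0 array a sample. Every probe set whose annotation names exactly 1 gene was taken, and 21 of 34945 such probe sets belonged to the clock genes, 10 of the 18193 genes so named. The age of the mice, the number pooled and the hour at which cells were collected are not given in the sources used here, so the phase of the clock at collection was not tested.

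The clock is a transcriptional loop. The activators Clock and Arntl (also called Bmal1) bind E-box elements and switch on the Per and Cry genes, whose proteins return to the nucleus and repress Clock and Arntl. A second loop joins to it: Nr1d1 and Nr1d2 (REV-ERB alpha and beta) repress, and Rora activates, Arntl through a shared element, the RORE. Dbp and Tef, with Hlf, are output activators that bind the D-box, where Nfil3 represses, and Bhlhe40 (DEC1) competes for E-boxes. In blood formation the clock is best known for the daily rhythm with which stem and progenitor cells leave the marrow.

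The values are probe set intensities in arbitrary units, on a linear scale, so levels of different probe sets cannot be set against each other. Signals were read against a floor, the highest signal of 27 probe sets for Bacillus subtilis transcripts on each array, which lay between 13.6 and 16.9 units. Array medians were 26.1 and 26.9 units in HSC and 22.0 and 21.3 units in MPP. The actin 3' to 5' signal ratio, a measure of RNA quality and amplification, was 9.42 on HSC replicate 2 and lay between 4.99 and 5.26 on the other 3 arrays. The same ratio for Gapdh set that array apart by less, at 5.81 against 4.88 to 5.15 on the other 3. At the RNA level Cd34, the antigen of the sort, followed the labels with a log2 difference (HSC minus MPP) of -2.66. Among markers that the labels do not name, Flt3 had a difference of -3.53, and the stem cell markers Slamf1 and Procr of 3.29 and 2.31. These 4 genes had limma adjusted p between 2.11e-05 and 1.82e-04.

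Markers of other blood lineages also moved between the groups, and their part in the results was not tested. Of 4 tested erythroid markers 3 rose in HSC (summed level of the list 409.95 to 530.4 units in HSC and 97.8 to 104.6 in MPP). So did 2 of 5 megakaryocyte markers (804.6 to 1059.8 in HSC and 392 to 545 in MPP). Over all genes tested, 7.71% were called higher in HSC. Of 6 tested myeloid markers 4 fell (1111 to 1655 in HSC and 7199 to 8772 in MPP). So did 3 of 3 lymphoid markers (106 to 154 in HSC and 2714 to 3895 in MPP). Over all genes tested, 5.9% were called lower in HSC. Bright probe sets weigh most in these sums, which do not give the level of a lineage. In MPP, Mpo alone read 3867 and 4658 units, and Dntt alone 2244 and 3408 units. Some listed markers with a probe set were under the floor on all 4 arrays. They were 2 of 7 erythroid (Alas2 and Slc4a1), 1 of 6 megakaryocyte (Gp6), 1 of 7 myeloid (Itgam) and 3 of 7 lymphoid (Cd79a, Cd3e and Cd3g). The rest were above it on at least 1 array, among them Gp1bb, Ppbp and Nkg7 on all 4. Nkg7 read 49.5 and 43.3 units in HSC, against 376 and 312 units in MPP. In bulk samples of this kind, fewer cells of a type and less RNA per cell cannot be told apart.

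None of the 10 clock genes passed the test between HSC and MPP. Once the dimmest 40% of probe sets by mean level had been set aside, 15 of the 21 clock probe sets were tested, standing for 9 of the 10 genes, and Nr1d1 had none. By limma with Benjamini-Hochberg adjustment over all 27022 probe sets tested, 0 of the 15 clock probe sets had an adjusted p under 0.05, against 10.6% of all probe sets tested (5.96% higher and 4.65% lower in HSC). At an unadjusted p under 0.05 there were 2, those of Cry2 and Bhlhe40, against 24.4% of all. By 1 representative probe set a gene, the tested one with the highest mean, 0 of 9 clock genes were called, against 13.6% of 12382 genes, and 2 of 9 at an unadjusted p under 0.05, against 28.7%.

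The precision of 2 arrays a group sets what this absence of calls can show. For 6 of the 9 genes (Per1, Per2, Per3, Nr1d2, Dbp and Tef) the 95% interval of the difference in the representative probe set excluded a 2-fold change in either direction. For Cry1, Cry2 and Bhlhe40 it did not. Nor did it for the other 3 tested Per3 probe sets, whose upper limits were 2.49-fold, 2.47-fold and 2.53-fold, or for the second Per2 probe set, whose lower limit was a ratio of 0.491. The intervals and the single values stand side by side in the plot of log2 differences.

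**Figure D1:**
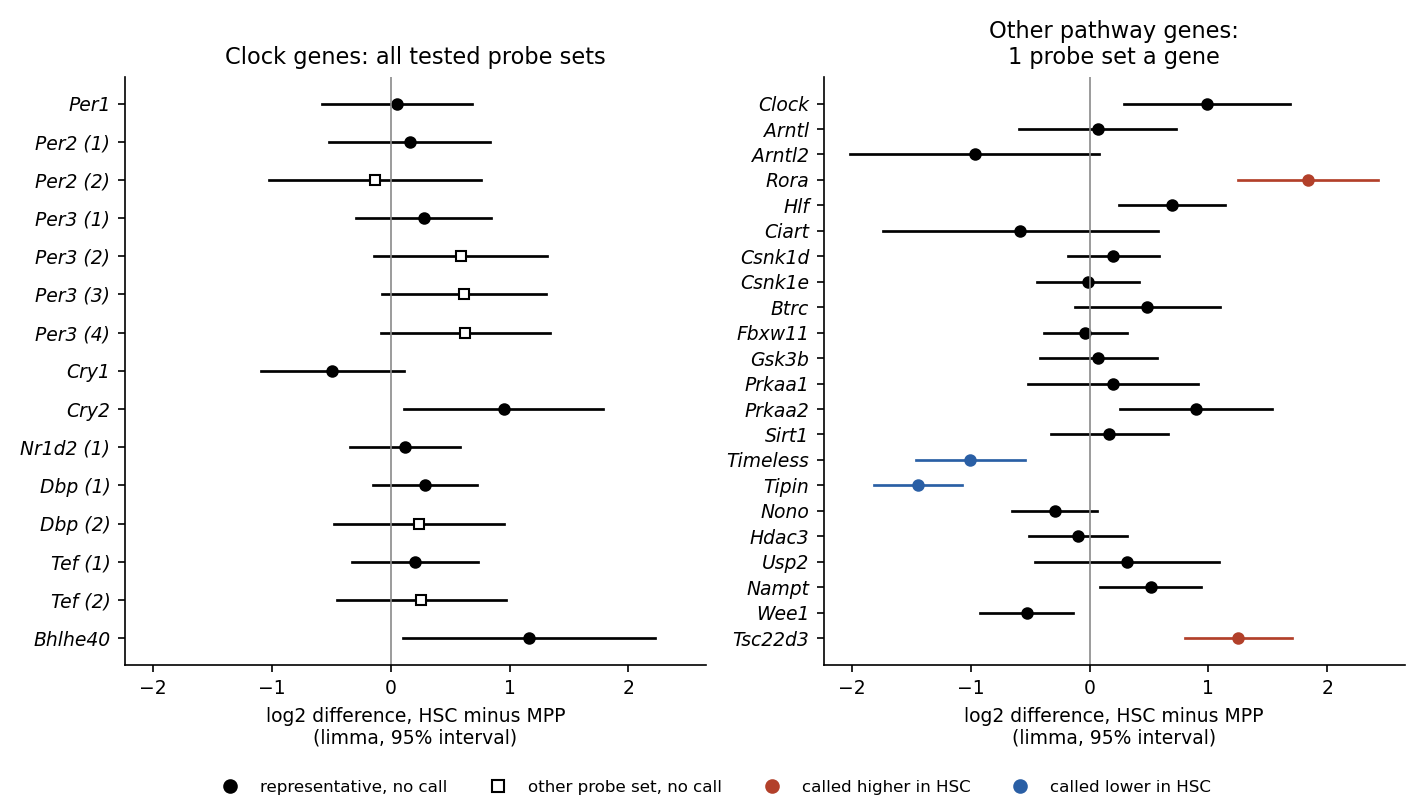
Log2 difference between HSC and MPP (HSC minus MPP, x axis) with its 95% interval from limma, for the 15 tested clock probe sets (left) and for the representative probe sets of 22 other clock pathway genes (right). Numbers in brackets order the probe sets of a gene by mean level. No clock gene was called, and on the right Rora and Tsc22d3 were called higher and Timeless and Tipin lower in HSC.

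The sign of the clock genes as a group depended on the setting. Of the 15 tested probe sets 13 had a difference above 0, against 58.3% of all probe sets tested, and the median over the 9 genes was 0.20 on the log2 scale against 0.10 over all genes tested. That count moved with the scaling of the arrays. It was 11 of 15 after quantile normalization (49.2% of all probe sets) and 9 of 15 with equal array medians (40.3%), settings in which the median of all probe sets was -0.01 and -0.13, against 0.11 with the values as deposited. With equal array medians the median over the 9 clock genes was -0.03 and 4 of 9 lay above 0. Without MPP replicate 1, 9 of 15 probe sets and 5 of 9 genes lay above 0. Both HSC arrays read above both MPP arrays in 7 of the 15 probe sets, against 33.3% of all. Both read below in 1, against 21.3% of all, and the groups overlapped in the other 7.

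**Figure D2:**
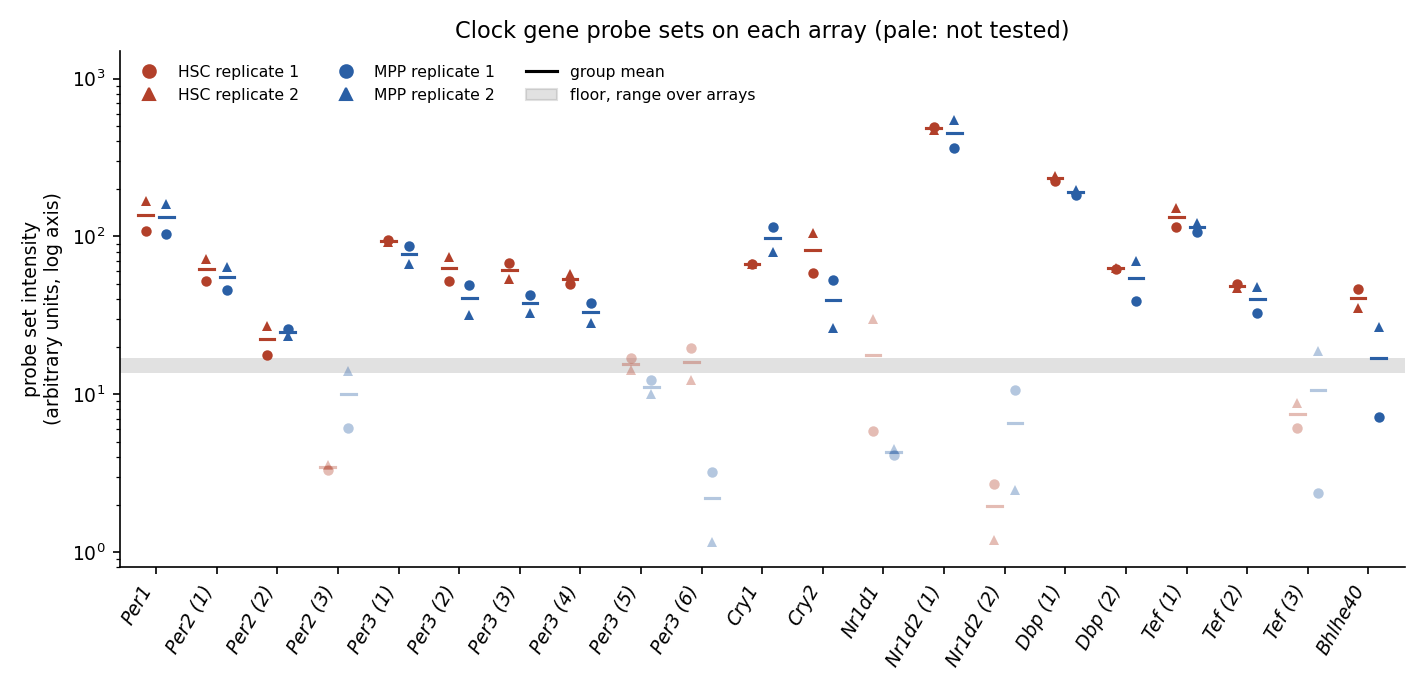
Intensity (y axis, arbitrary units, log scale) of the 21 clock gene probe sets on each of the 4 arrays, with group means as bars, HSC left of MPP. Numbers in brackets order the probe sets of a gene by mean level, pale symbols mark the 6 probe sets that were not tested, and the grey band is the floor (13.6 to 16.9 units). Replicate 2 of both groups lies above replicate 1 for Per1 and for the brightest probe set of Per2, and the 4 tested Per3 probe sets have both HSC values above both MPP values.

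The 3 Period genes encode the repressors whose accumulation times the loop. Per1 (probe set 1449851_at) read 108 and 166 units in HSC, against 104 and 161 units in MPP. Its groups overlapped throughout, and the spread inside each group was far wider than the gap between their means, 137 ± 41.3 units in HSC and 132 ± 40.5 units in MPP (SD, n = 2 each). The log2 difference was 0.05 (95% interval -0.58 to 0.68, limma adjusted p = 0.939). Per2 (1417602_at) showed the same arrangement, with 51.9 and 72.3 units in HSC, against 46.0 and 64.0 units in MPP. Its log2 difference was 0.16 (interval -0.52 to 0.84, adjusted p = 0.80), and a second, dimmer Per2 probe set gave -0.13 (17.8 and 26.9 units in HSC, against 26.0 and 23.4 units in MPP). Another was not tested and was under the floor on 3 of the 4 arrays, all but MPP replicate 2 (3.29 and 3.58 units in HSC, against 6.07 and 13.9 units in MPP). The direction of Per1 and Per2 was not stable, turning below 0 in 4 of 15 alternative settings each (to -0.25 for Per1).

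Per3 is dispensable for rhythm in most settings and serves mainly as a robust output of the loop. It had 6 probe sets, more than any other member, and 4 of them were tested. Its brightest probe set (1421087_at) read 95.05 and 92.5 units in HSC, against 87.2 and 66.6 units in MPP. The next (1442243_at) read 52.4 and 74.3 units in HSC, against 49.2 and 31.6 units in MPP. Another (1458176_at) read 67.6 and 54.0 units in HSC, against 42.6 and 32.7 units in MPP. In each, both HSC arrays lay above both MPP arrays. This also held for the fourth tested one (1441445_at, 50.1 and 57.9 units in HSC, against 37.9 and 28.2 units in MPP). It thus held in 4 of 4 tested, against 33.3% of all probe sets tested. The 2 that were too dim to test read 17.0 and 14.3 units in HSC, against 12.3 and 10.02 units in MPP, and 19.7 and 12.3 units in HSC, against 3.24 and 1.15 units in MPP. These were under the floor on both MPP arrays and on 1 of the 2 HSC arrays, and their order carries no information.

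None of the Per3 differences passed the test. The 4 log2 differences were 0.28, 0.59, 0.62 and 0.63, with limma adjusted p = 0.556, 0.313, 0.258 and 0.265. Fitted as the mean of the 4 tested probe sets, the difference was 0.53 (adjusted p = 0.188). Probe sets of 1 gene share the same RNA and are not replicates, so 4 of 4 describes probe sets and not samples. The median difference of all tested probe sets at the level of the Per3 probe sets was 0.12 to 0.20, and the values above include that general shift.

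Some promoters of the clock genes hold the letters of an element named above, the E-box or the D-box. The windows of Per1, Per3 and Cry1 are shown here because they hold such elements. That of Arntl is shown because it holds the letters of the RORE core, at which Rora, described below as higher in HSC, is known to act. All are from RefSeq on GRCm38.p6 and run from 250 bases before to 50 after an annotated start, 5′ to 3′ on the gene's strand. Capitals mark the motifs. CACGTG is the E-box and CACGTT a variant of it. TTANGTAA is the D-box and TAGGTCA is the core of the RORE. A match on the other strand shows as the reverse complement.
Per1 (chr11:69098699-69098998, plus strand): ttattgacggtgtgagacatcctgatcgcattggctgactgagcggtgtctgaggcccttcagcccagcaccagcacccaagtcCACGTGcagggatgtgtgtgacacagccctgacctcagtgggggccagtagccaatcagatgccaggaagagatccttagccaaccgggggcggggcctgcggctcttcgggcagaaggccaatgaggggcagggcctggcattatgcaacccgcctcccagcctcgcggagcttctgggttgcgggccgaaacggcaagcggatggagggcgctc
Per3 (chr4:151044616-151044915, minus strand): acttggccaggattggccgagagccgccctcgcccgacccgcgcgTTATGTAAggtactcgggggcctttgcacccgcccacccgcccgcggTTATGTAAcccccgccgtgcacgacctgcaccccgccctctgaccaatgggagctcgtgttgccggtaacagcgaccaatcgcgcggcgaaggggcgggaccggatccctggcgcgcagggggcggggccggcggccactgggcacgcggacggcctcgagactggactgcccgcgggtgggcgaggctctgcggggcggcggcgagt
Cry1 (chr10:85185005-85185304, minus strand): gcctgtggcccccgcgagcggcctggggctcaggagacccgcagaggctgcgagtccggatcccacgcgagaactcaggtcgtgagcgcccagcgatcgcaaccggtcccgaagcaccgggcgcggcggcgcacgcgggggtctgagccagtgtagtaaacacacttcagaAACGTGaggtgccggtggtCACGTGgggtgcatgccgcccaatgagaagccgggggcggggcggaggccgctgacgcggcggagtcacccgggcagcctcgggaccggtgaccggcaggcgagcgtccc
Arntl (chr7:113207261-113207560, plus strand): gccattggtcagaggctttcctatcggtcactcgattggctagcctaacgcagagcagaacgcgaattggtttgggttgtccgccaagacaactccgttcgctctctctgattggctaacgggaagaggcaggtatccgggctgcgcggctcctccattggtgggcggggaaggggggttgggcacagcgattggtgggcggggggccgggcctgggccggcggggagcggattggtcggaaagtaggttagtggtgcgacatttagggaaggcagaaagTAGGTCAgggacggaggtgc

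In the Per1 window the E-box begins 166 bases before the start, and in the Per3 window the 2 D-boxes begin 205 and 158 bases before it. The Cry1 window has its E-box at 60 bases and the variant at 79 bases before the start, and the Arntl match begins 30 bases after it. Per1 and Arntl each had another window, at a different annotated start, that held none of these motifs and is not shown. Searched on both strands of all 32851 RefSeq windows of this length, the E-box was found in 7.15%, the variant in 4.68%, the D-box in 2.32% and the RORE core in 2.61%. Of the 8 clock genes with a window (10 windows in all), 3 had an E-box (Per1, Cry1 and Tef), 3 the variant (Cry1, Cry2 and Nr1d1) and 1 the D-box (Per3). The cAMP response element TGACGTCA, present in 1.79% of windows, was in none of theirs. Per2 and Bhlhe40 were not matched to a window. A match describes letters only and does not show that a factor was bound in these cells.

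The 2 Cryptochrome genes, whose proteins are the main repressors of Clock and Arntl, lay on opposite sides of 0. Cry1 (1433733_a_at) read 66.6 and 66.4 units in HSC, against 115 and 79.9 units in MPP, and was the only member whose representative probe set was lower in HSC. Both HSC arrays were below both MPP arrays, but the MPP arrays differed from each other by more than the gap to HSC. The log2 difference was -0.49 (interval -1.09 to 0.11, limma adjusted p = 0.302). Cry2 (1426383_at) read 58.7 and 104 units in HSC, against 53.1 and 26.4 units in MPP. Its groups did not overlap, yet HSC replicate 1 and MPP replicate 1 were close, and most of the gap came from the replicate 2 arrays.

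The log2 difference of Cry2 was 0.95 (interval 0.11 to 1.79, adjusted p = 0.150). Without HSC replicate 1 it became 1.33 and passed the test (adjusted p = 0.0358), resting then on HSC replicate 2, the array with the high actin ratio, whose part was not tested. Without HSC replicate 2 it was 0.56 (adjusted p = 0.453). Whether Cry1 and Cry2 differed from each other in their response was not tested.

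The nuclear receptor genes Nr1d1 and Nr1d2 encode the repressors of the second loop. Nr1d2 (1416958_at) read 496 and 472 units in HSC, against 364 and 544 units in MPP. The MPP arrays lay on either side of both HSC arrays, and the log2 difference was 0.12 (interval -0.35 to 0.58, limma adjusted p = 0.778). It turned to -0.17 without MPP replicate 1 and to -0.11 with equal array medians. A second Nr1d2 probe set was under the floor on all 4 arrays (2.72 and 1.19 units in HSC, against 10.6 and 2.48 units in MPP). The single Nr1d1 probe set (1426464_at) read 5.84 and 29.8 units in HSC, against 4.11 and 4.50 units in MPP. It was above the floor on HSC replicate 2 alone and was left out as dim. With HSC replicate 1 and both MPP arrays under the floor, no bound on the fold difference can be given.

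Among the output and feedback factors, Dbp and Tef are close relatives that drive D-box genes. Dbp, on its brighter probe set (1438211_s_at), read 225 and 242 units in HSC, against 183 and 197 units in MPP. These arrays agreed closely within each group, at 233 ± 11.7 units in HSC and 190.0 ± 10.5 units in MPP (SD, n = 2 each), without overlap. The log2 difference was small, 0.29 (interval -0.15 to 0.72, limma adjusted p = 0.412). The second Dbp probe set gave 0.24, with the MPP arrays (38.8 and 69.9 units) on either side of the HSC arrays (62.4 and 63.2 units). An _s_at probe set can match more than 1 transcript. The annotation of the brighter one names Dbp alone, and its specificity was not tested.

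Tef (1424175_at) read 115 and 152 units in HSC, against 107 and 122 units in MPP, with overlap and a log2 difference of 0.20 (interval -0.33 to 0.73, adjusted p = 0.655). The second tested Tef probe set gave 0.26 (49.8 and 47.1 units in HSC, against 32.7 and 47.6 units in MPP). The dimmest was not tested and read 6.13 and 8.75 units in HSC, against 2.36 and 18.9 units in MPP. With equal array medians Tef stood at -0.03. Bhlhe40 (1418025_at), the E-box competitor, read 46.2 and 35.2 units in HSC, against 7.20 and 26.5 units in MPP. Both HSC arrays were higher, but MPP replicate 1 was under the floor. Its log2 difference was 1.16 (SE 0.48, interval 0.10 to 2.22, adjusted p = 0.165), and it was 0.51 without MPP replicate 1 (adjusted p = 0.67).

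The other parts of the clock were taken from a list of 30 pathway genes. Probe sets naming 1 gene were found for 27, and 22 were tested. By representative probe set 2 rose in HSC (Rora and Tsc22d3, against 7.71% of all genes higher), 2 fell (Timeless and Tipin, against 5.9% of all genes lower) and 18 were not called. The list's median log2 difference was 0.12. By role, the calls were 0 of 3 activators, 1 of 3 loop partners, 2 of 12 kinases, turnover factors and cofactors, and 1 of 4 outputs.

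Rora, the activator that opposes Nr1d1 and Nr1d2 at the RORE, had the largest rise. Its representative probe set (1455165_at) read 126 and 126 units in HSC, against 29.5 and 32.5 units in MPP. That is 126 ± 0.305 units in HSC and 31.0 ± 2.08 units in MPP (SD, n = 2 each), a 3.57-fold difference on the log2(intensity + pseudocount) scale (log2 1.84, SE 0.27, limma adjusted p = 0.00169). In all 7 tested Rora probe sets both HSC arrays were above both MPP arrays, against 33.3% of all probe sets tested. Of the 7, 3 were called higher, against 5.96% of all. These 7 probe sets share the same RNA and are not replicates. The other 2 Rora probe sets were too dim to test and their groups overlapped. A second called one (1424034_at) read 146 and 97.6 units in HSC, against 26.6 and 21.9 units in MPP (log2 difference 2.06, adjusted p = 0.00200). The representative was called in all 15 alternatives, with log2 differences between 1.45 and 1.99. Its known target Arntl (1425099_a_at) read 209 and 107 units in HSC, against 156 and 130 units in MPP. The HSC arrays enclosed both MPP arrays, and the log2 difference was 0.07 (interval -0.59 to 0.73, adjusted p = 0.920), with the sign turning in 4 of 15 alternatives.

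Clock, the partner of Arntl, was close to the threshold. Its representative probe set (1418659_at) read 97.7 and 79.2 units in HSC, against 31.3 and 54.2 units in MPP (log2 difference 0.99, SE 0.32, adjusted p = 0.0758). A second (1418660_at) read 79.6 and 78.8 units in HSC, against 25.5 and 31.6 units in MPP. That one was called (log2 difference 1.31, SE 0.30, adjusted p = 0.0189). The other 2 Clock probe sets overlapped between groups and were not called, at log2 differences of 0.11 and 0.81, so that all 4 lay above 0.

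**Figure D3:**
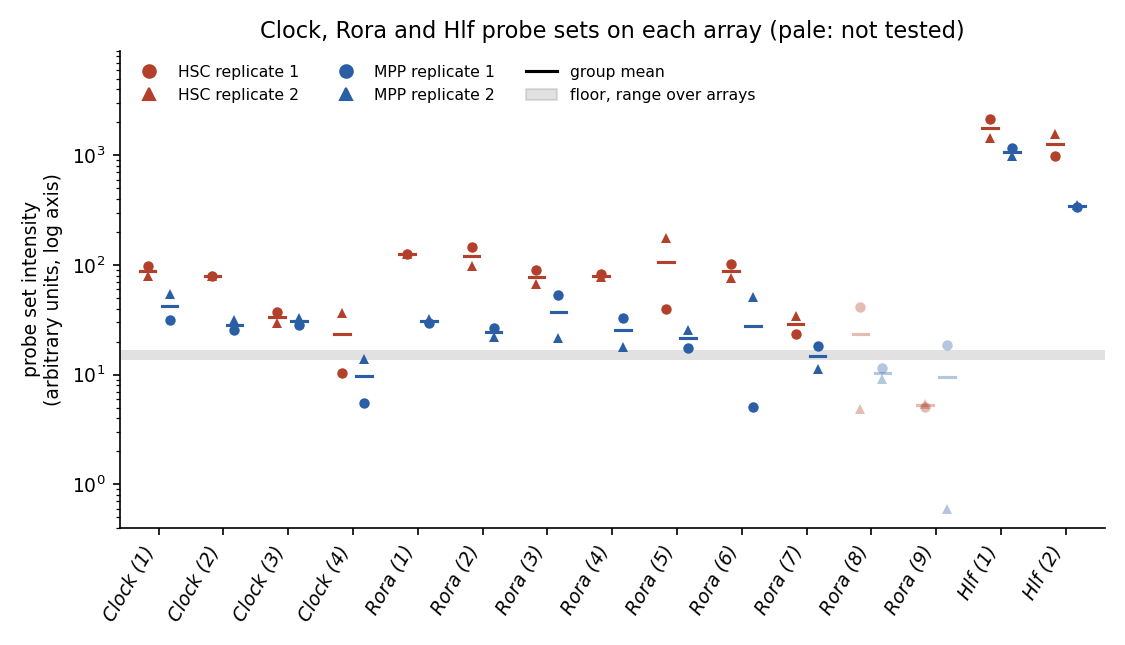
Intensity (y axis, arbitrary units, log scale) of all Clock, Rora and Hlf probe sets on the 4 arrays, with group means as bars, HSC left of MPP and the floor (13.6 to 16.9 units) in grey. Numbers in brackets order the probe sets of a gene by mean level and pale symbols were not tested. The 7 tested Rora probe sets and both Hlf probe sets have both HSC values above both MPP values. This holds for 2 of the 4 Clock probe sets and for 33.3% of all probe sets tested.

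Hlf and Nfil3 are the D-box factors outside the member list. Hlf, a relative of Dbp and Tef known as a stem cell regulator, read 2131 and 1434 units in HSC, against 1167 and 994 units in MPP, on its brighter probe set (1434735_at). That difference missed the threshold (log2 0.70, SE 0.20, adjusted p = 0.0518). Hlf passed it in 8 of 15 alternatives, among them the mean of both probe sets (log2 1.27). The dimmer one (1434736_at) read 994 and 1556 units in HSC, against 338 and 349.6 units in MPP, and was called (log2 1.84, SE 0.21, adjusted p = 4.34e-04). Nfil3, the D-box repressor, read 19.8 and 23.7 units in HSC, against 4.23 and 12.7 units in MPP. Both MPP values were under the floor and the probe set was not tested. On the log2(intensity + pseudocount) scale, the ratio to the floor of the MPP arrays puts HSC at least 1.37-fold higher. That value rests on 2 arrays a group and has no interval. Npas2, the stand-in for Clock, and Bhlhe41, the relative of Bhlhe40, were under the floor on all 4 arrays.

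Tipin and Timeless, a pair of replication fork proteins of which Timeless is also reported to bind clock proteins, fell in HSC. Tipin (1426612_at) read 545 and 456 units in HSC, against 1324 and 1414 units in MPP (log2 difference -1.45, SE 0.17, limma adjusted p = 4.12e-04). Timeless (1417586_at) read 275 and 316 units in HSC, against 711 and 500.5 units in MPP (-1.004, SE 0.21, adjusted p = 0.0115). Leaving out MPP replicate 1 took its call away (-0.75, adjusted p = 0.141), as did a prior variance with no trend on level (adjusted p = 0.114), while its second probe set was also called (-1.48, adjusted p = 0.00273). Mitosis genes moved with them: 7 of 7 tested fell, against 5.9% of all genes called lower, with a summed level of 1349 to 1641 units in HSC and 6769.9 to 8196 units in MPP. The part of cell division in these 2 differences was not tested.

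Tsc22d3, a glucocorticoid-induced gene with daily rhythm in many tissues, read 400.5 and 379 units in HSC, against 182 and 141 units in MPP (1420772_a_at). It was called (log2 difference 1.25, SE 0.20, adjusted p = 0.00317), as was a second of its 4 probe sets. The other 2 were not, and the mean over all 4 gave 0.52 (adjusted p = 0.121). The call also ended when probe sets ending in _x_at, _s_at or _a_at were dropped (0.11, adjusted p = 0.900) and when the prior variance had no trend (adjusted p = 0.0571). The other tested outputs, Usp2, Nampt and Wee1, were not called.

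Between replicates, Per1 and Per2 differed more than they did between the groups. Replicate 2 was 1.54 times replicate 1 in HSC and 1.55 times in MPP for Per1, and 1.40 and 1.39 times for Per2. By representative probe set, replicate 2 was higher in both groups for 4 of the 9 tested clock genes (Per1, Per2, Dbp and Tef), against 24.4% of all probe sets tested. The second tested probe set went the other way in 1 group for Per2 (0.902 times in MPP) and for Tef (0.947 times in HSC). Replicate 2 was at least 1.5 times replicate 1 in both groups for 1 of 9 (Per1), against 2.66% of all. The labels do not say that a shared number marks a shared sort or day.

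Immediate early genes, which cells switch on within minutes of a stimulus and to which Per1 is often counted, showed the same arrangement. All 9 listed (Fos, Fosb, Jun, Junb, Egr1, Ier2, Dusp1, Nr4a1 and Atf3) were higher in replicate 2 of both groups, and 7 of 9 by at least 1.5 times in both. Their ratios of replicate 2 to replicate 1 ran from 1.21 to 3.13 in HSC and from 1.74 to 4.21 in MPP. Dusp1, a phosphatase gene, read 1595 and 2922 units in HSC, against 1040 and 3059 units in MPP. Fos read 2948 and 5479 units in HSC, against 3751 and 6533 units in MPP. Between the groups only Egr1 of the 9 was called (log2 difference 1.31, limma adjusted p = 0.0372), against 13.6% of all genes tested. The part of the immediate early signal in the Per1 and Per2 levels was not tested.

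**Figure D4:**
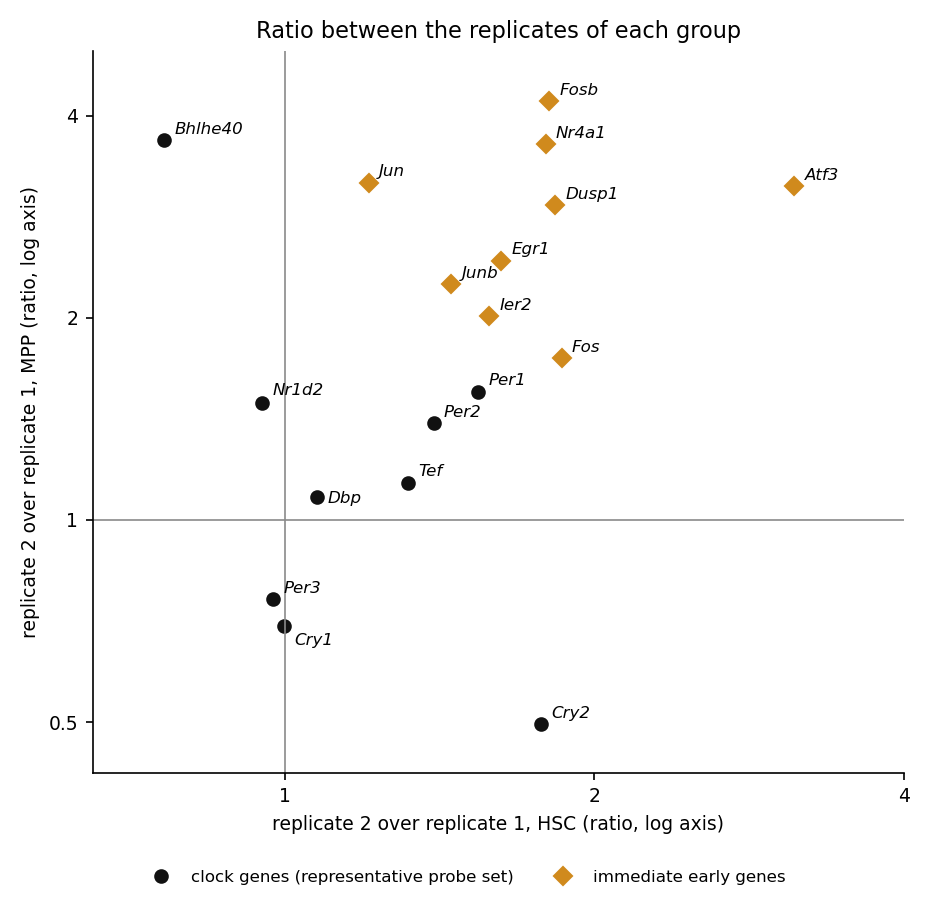
Ratio of replicate 2 to replicate 1 in HSC (x axis, log scale) and in MPP (y axis, log scale) for the 9 tested clock genes by representative probe set (black circles) and for 9 immediate early genes (orange diamonds), with grey lines at a ratio of 1. All immediate early genes and Per1, Per2, Dbp and Tef lie in the upper right part, with Per1 at 1.54 and 1.55, while Cry2 and Bhlhe40 moved in opposite directions in the 2 groups.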

How the data were processed

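Total RNA from 4 sorted samples was amplified in 2 rounds and hybridised to Affymetrix arrays, per the labels' protocols. The deposited table holds 1 linear intensity a probe set and array. On every array the mean without the top and bottom 2% was 100, as read from the values, and the software that summarised probes is not stated in the labels. Probe sets were named from the platform annotation, symbols updated through RefSeq (34741 matched). Of 45101 probe sets 64 were controls, 932 named several genes and 9160 none.

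Tests used log2(intensity + 6.01), a pseudocount set to 0.25 times the overall median, without further normalization. The lowest 40% by mean level were left out. The fit was limma 3.58.1 in R 4.3.3 (lmFit and eBayes with a trend, 2 residual and 8.48 prior degrees of freedom), and was tested on simulated data. A call was an adjusted p under 0.05, adjusted over all tested probe sets. Counts of genes used that same adjusted p of the representative probe set. Only the alternative that took the mean of a gene's probe sets was adjusted over genes. The labels call the samples biological replicates but name no separate animals, and p-values thus cover only the spread between these arrays, which may be technical. The number of arrays limits the precision.

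All members were named, with every pathway gene that passed and Clock, Arntl, Npas2, Rora, Nfil3, Hlf and Bhlhe41 whatever their result, besides Cd34, Flt3, Slamf1 and Procr. Genes and values outside that rule (Usp2, Nampt, Wee1, lineage, mitosis and immediate early genes) come from the lists. Members and lists were chosen with earlier results of these data known. An "at least" fold against the floor was given where 1 group had both arrays under the floor and the other both above. It used the same log2 scale with the pseudocount. Alternatives changed the filter, pseudocount, scaling, trend, replicate block, array weights, probe set choice and replicates. Pathway genes without a named probe set were not analysed here.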

Additional observations from a re-analysis of the deposited data

How the results depend on the processing

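Each result was refitted under up to 15 alternatives, 4 of which left out 1 array; the lone array of a group was then assumed to vary like the other group. The count of clock genes, and of clock probe sets, called higher was 0 and ranged from 0 to 1 with each replicate left out. The 1 was Cry2 without HSC replicate 1. Called lower stayed at 0 in every setting. The labels give same-numbered replicates nothing but the number in common, and their deviations from the group means correlated at 0.027 over all probe sets tested. This does not show that nothing was shared. The listed immediate early genes were higher in replicate 2 of both groups in 9 of 9, against 24.4% of all probe sets tested. What this order reflects was not tested. With a replicate block 1 clock gene by 1 probe set was called, Cry2 (0.95, limma adjusted p = 0.0322), and all called probe sets numbered 2525 higher and 1833 lower, against 1611 and 1257. That fit had 1 residual and infinite prior degrees of freedom. Each probe set thus took the variance of the trend, and its own spread did not enter its p-value. The larger number of calls therefore does not show a gain from pairing.

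Pathway genes called higher numbered 2, with 5 under the replicate block (Clock, Hlf, Prkaa2, Rora and Tsc22d3), 1 without the trend, and 2 to 3 with each replicate left out. Those called lower numbered 2, with 1 without the trend and 1 to 4 with each replicate left out: 4 without HSC replicate 1 (Nono, Timeless, Tipin and Wee1) and 1 without MPP replicate 1 (Tipin). Without the trend, Timeless (limma adjusted p = 0.114) and Tsc22d3 (adjusted p = 0.0571) lost their calls. Tsc22d3 also lost its call without probe sets ending in _x_at, _s_at or _a_at (0.11, adjusted p = 0.900), which leaves 1 of its 4 probe sets. Over all probe sets, calls without the filter were 917 higher and 780 lower, with equal array medians 1020 and 2379, without the trend 633 and 374. They were 2011 and 1908 without HSC replicate 1, 1521 and 1541 without HSC replicate 2, 1100 and 623 without MPP replicate 1, and 1026 and 568 without MPP replicate 2.

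Signs turned only for log2 differences that were not called. Per1 was -0.041 after quantile normalization, -0.183 with equal array medians, -0.248 without HSC replicate 2 and -0.253 without MPP replicate 1. Per2 was -0.029, -0.075, -0.060 and -0.057 in the same settings. Nr1d2 was -0.114 and Tef -0.030 with equal array medians, and Nr1d2 -0.166 without MPP replicate 1. Arntl was -0.009 after quantile normalization, -0.165 with equal array medians, -0.400 without HSC replicate 1 and -0.060 without MPP replicate 2. With each replicate left out, Per1 ranged from -0.253 to 0.354, Per2 from -0.060 to 0.377, Nr1d2 from -0.166 to 0.403 and Arntl from -0.400 to 0.536. The equal-median and quantile settings shift all probe sets by construction, and for the others the cause was not tested. Cry1 and Bhlhe40 kept their direction and stayed uncalled in 14 alternatives each, and Per3 and Dbp in 15, but their sizes moved: Per3 (0.28) between 0.045 and 0.527, Dbp (0.29) between 0.054 and 0.342, Cry1 (-0.49) between -0.740 and -0.244, and Bhlhe40 (1.16) between 0.512 and 1.811. Signals near the floor limit Bhlhe40, Nr1d1 and the dim Per3 probe sets.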
